A study of Mus musculus with 10 samples.

Results

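The cytosolic ribosomal proteins are the protein components of the ribosome that translates nuclear messages. Their genes were taken by symbol: every gene whose symbol starts with Rpl or Rps followed by a number, and Rplp0, Rplp1, Rplp2 and Rpsa, without the S6 kinases (Rps6k genes), Rps19bp1 and pseudogenes marked -ps. This rule found 87 of the 19271 genes in the table, 53 with large subunit names (Rpl) and 34 with small subunit names (Rps). The low-count filter was passed by 84 of them. The other 3 were Rpl39l with 0 reads in each of the 10 libraries, Rpl3l with 0 to 3 reads and Rps27rt with 0 or 4 reads.

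Poly(A)-selected liver RNA was sequenced from 10 mice of the C57BL6/N strain, aged 2 months, with differing alleles of Htra2, which encodes HtrA2/Omi, a serine protease of mitochondria. The groups were 3 wild-type males (WT/WT), 3 males with 1 S400D allele (S400D/WT), 3 males with 2 S400D alleles (S400D/S400D) and 1 S400D/S400D female. The mutation replaces a serine of the protease by aspartate, and the labels name no transgene, Cre driver or treatment. The labels number the animals without giving litters or collection times, so a p-value reflects the spread among these samples, which may be technical.

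A ribosome holds 1 copy of nearly every one of these proteins, and cells make them in matched amounts together with ribosomal RNA. Their messages are among the most abundant and evenly expressed in most tissues. Many start with a C followed by a run of pyrimidines, the terminal oligopyrimidine motif, through which LARP1 and the mTOR pathway control their translation and stability. Some members also have roles outside the ribosome, such as RPL5 and RPL11, which bind 5S ribosomal RNA and can hold the p53 ligase MDM2.

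The libraries held 16240441 to 17264289 expected counts, and 12427 genes were tested in the 9 males. Hepatocyte markers (5 of 5 genes detected) summed to 89500 to 99577 CPM (counts scaled to library size) in wild-type males. The sums were 70754 to 95790 in heterozygous and 102309 to 130505 in homozygous males, highest in the last without overlap. Only 3 of these 5 genes had a positive fold change in homozygous against wild-type males, so the sum does not describe each marker. No marker gene on any of the lists for other liver cell types was at 0. Erythroid markers stood out in wild-type male 1 at 1981 CPM and in heterozygous male 3 at 1733 CPM, against 161 to 503 in the other 8 livers. Macrophage markers were at 429 and 406 CPM in those same 2 livers, at 363 to 388 in the homozygous males and at 126 to 329 in the other wild-type and heterozygous males, and 7 of 7 macrophage genes had a positive fold change in homozygous against wild-type males. Sinusoidal endothelial markers, positive in 6 of 6 genes, summed to 73.4 to 184 CPM in wild-type, 105 to 165 in heterozygous and 173 to 178 in homozygous males. The clock gene Arntl was at 17.4 to 38.1 CPM in the homozygous males, 2.45 to 4.25 in the wild-type males, 1.17, 31.5 and 2.59 in the heterozygous males and 1.59 in the female, so only homozygous and wild-type males did not overlap. The part of these markers and of Arntl in the results was not tested. Htra2 was at 12.3 to 17.3 CPM, and since S400D is a point mutation its level does not check the labels.

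Levels of different genes were compared per length, as FPKM (fragments scaled to transcript length and library size). The 84 tested members had a median of 390 FPKM over the 10 livers, with an interquartile range of 232 to 523. Rps2, a small subunit protein near the entry of the message channel, was highest at 1196 FPKM. It was followed by Rpl38 at 910 and Rpl10, which joins the large subunit late in its assembly, at 877. Next came Rpl28 at 853 and Rpl41, the shortest ribosomal protein, at 828. Rpl38 had an effective length of 68.7 bases, against a median of 441 bases for the members, so its place depends on that transcript model. By CPM, which is not scaled to length, Rpl38 ran from 52.2 to 72.8 over the livers. The range of Rpl38 over the livers (791 to 1115) overlapped those of Rpl10 (788 to 999), Rpl28 (730 to 939) and Rpl41 (739 to 897), so these 4 did not differ beyond their spread. Only the range of Rps2 (978 to 1411) reached above those of the other 4, and it overlapped those of Rpl38 and Rpl10. Compared within each of the 10 livers, Rps2 was above the other 4 every time.

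**Figure D1:**
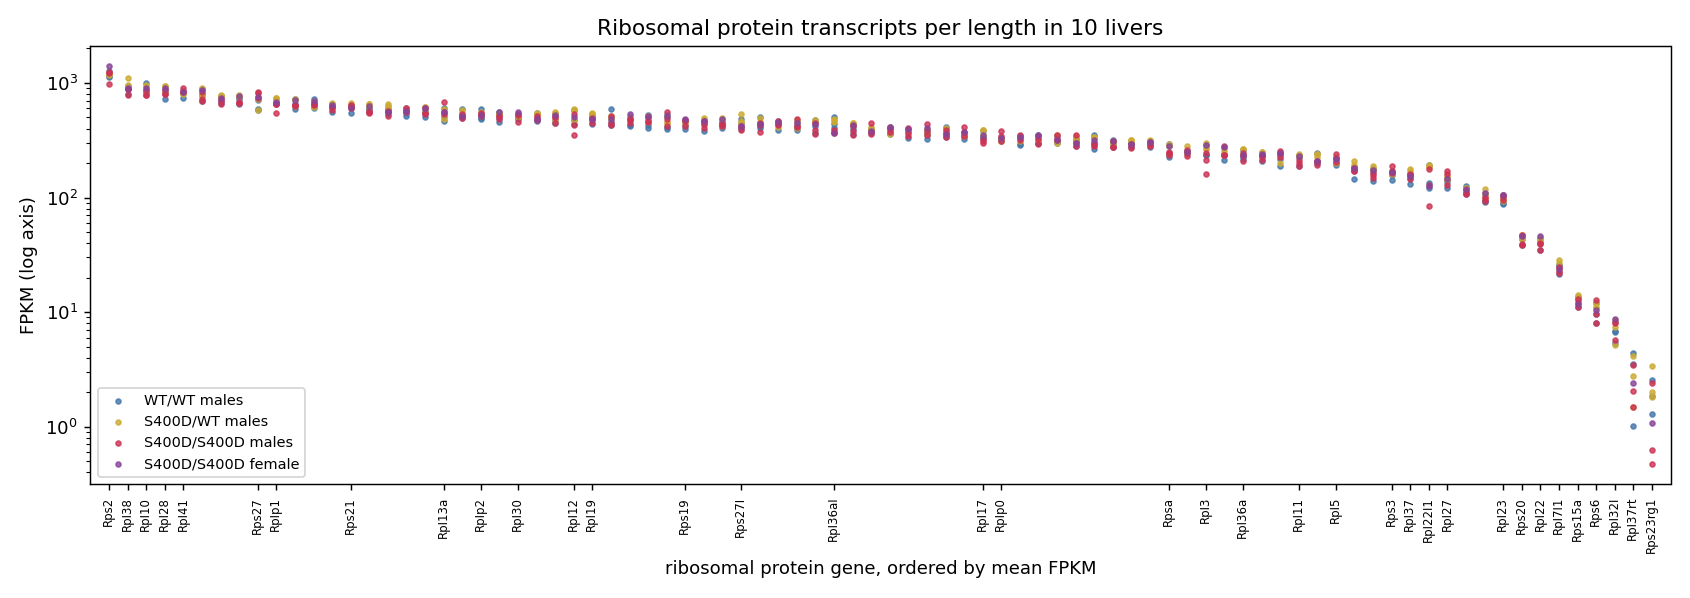
FPKM (log axis) of the 84 tested ribosomal protein genes, ordered by their mean over the 10 livers, with 1 point per liver coloured by genotype and some of the genes labelled. Rps2 leads at a mean of 1196 FPKM, and levels decline gradually to Rpl23 at 98.4 FPKM and more steeply over the 8 lowest genes.

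By role, the stalk proteins that recruit elongation factors were at 674 (Rplp1), 532 (Rplp2) and 329 FPKM (Rplp0), and the range of Rplp0 (309 to 380) lay below those of Rplp2 (486 to 591) and Rplp1 (551 to 745). The 5S partners Rpl5 and Rpl11 were at 214 and 218 FPKM, with overlapping ranges of 191 to 241 and 187 to 240. Rpsa, also known as the laminin receptor, was at 258 FPKM, and Rps19, the gene most often mutated in Diamond-Blackfan anaemia, at 456. At the lower end stood Rps15a at 12.6, Rps6 at 10.4, and 3 genes whose symbols mark them as copies of other members, Rpl32l at 7.05, Rpl37rt at 2.68 and Rps23rg1 at 1.75. The low value of Rps15a came with an effective length of 4859 bases in the authors' table, against a median of 441 bases for the members, so its FPKM depends on that transcript model.

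Rps6 encodes the substrate of the S6 kinases and, as a protein, is as abundant as its partners. In these files it held only 150 to 245 reads per library, while Rps6-ps4, a pseudogene that the symbol rule leaves out, held 4753 to 5882. Rps6 thus took 2.99% to 4.12% of the reads of the pair, and the pair together gave 4937 to 6110 reads. How reads were divided between the gene and this copy by the authors' program is not given in the sources used, so the level of Rps6 alone is uncertain. The sum was 5022, 5116 and 5707 reads in wild-type males, 6110, 5362 and 5120 in heterozygous males and 5949, 4948 and 4937 in homozygous males, and the groups overlapped.

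The members varied little between animals. Their coefficient of variation in CPM over the 9 males had a median of 7.86%, against 16.5% for all 12427 tested genes, and was below the all-gene median for 77 of 84 members. Among genes with a mean of 50 CPM or more, the median was 7.74% for 79 members and 12.6% for all 2621 genes of that level. The steadiest were Rps21 at 3.41%, Rpl30 at 3.56% and Rpl41 at 4.01%. Rps21, a small subunit protein, ran from 73.5 CPM in wild-type male 2 to 82.8 CPM in heterozygous male 2. The least steady were the low copies Rps23rg1 (11 to 75 reads) and Rpl37rt (44.6%, 7 to 30 reads), whose few reads limit their precision, and the paralogue Rpl22l1 (24.8%).

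**Figure D2:**
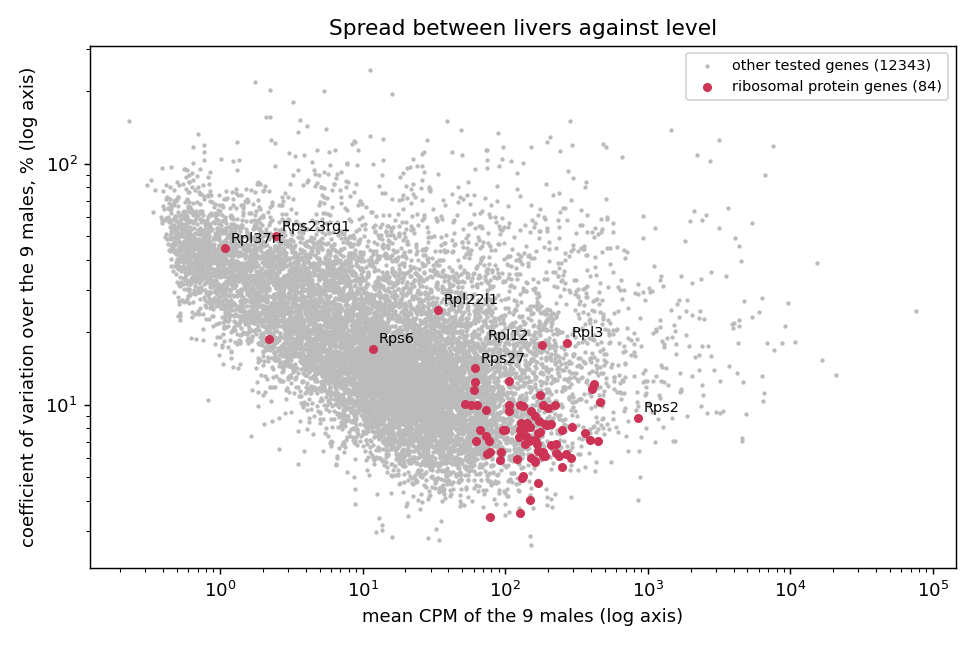
Coefficient of variation over the 9 males against mean CPM (both axes log) for 12343 other tested genes in grey and 84 ribosomal protein genes in red. Most red points lie at the lower edge of the cloud, with Rpl3, Rpl12 and Rpl22l1 above the other members of their level.

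Promoter sequences of 67 members, with 79 starts, were available in the RefSeq table of GRCm38.p6, each covering 250 bases before and 50 bases from the start. A C at the start followed by at least 4 further C or T was found at 15 of the 79 starts (19.0%) and at 2.51% of all 32851 starts in the table. The core bound by ETS factors, CGGAAG, was found on either strand at 58.2% of the member starts and 16.9% of all starts. ATGGCG, the core of the YY1 motif, was found on either strand at 29.1% and 8.93%; this motif can share 2 letters with the ETS core. The TATA box motif TATAAA, searched on both strands, was at 10.1% of member starts and 13.6% of all starts. A match describes these letters and is not a measured site. The 8 starts below belong to the members that the results turn on, from 60 bases before the start to 20 bases from it on GRCm38.p6, with capitals marking the pyrimidine run at the start and each CGGAAG or its reverse complement CTTCCG. For Rps27l the upstream of 2 listed starts is shown. The windows are chr3:90213629-90213708 (minus strand) for Rps27, chr9:66946026-66946105 (plus) for Rps27l, chr12:69184048-69184127 (minus) for Rpl36al, chr11:114668520-114668599 (plus) for Rpl38, chr3:28805448-28805527 (plus) for Rpl22l1, chr2:32961652-32961731 (plus) for Rpl12, chr4:86857348-86857427 (minus) for Rps6 and chr17:24720003-24720082 (plus) for Rps2.
Rps27: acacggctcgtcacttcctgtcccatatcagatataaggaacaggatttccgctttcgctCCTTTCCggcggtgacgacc
Rps27l: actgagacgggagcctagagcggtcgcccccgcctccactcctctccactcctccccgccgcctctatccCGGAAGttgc
Rpl36al: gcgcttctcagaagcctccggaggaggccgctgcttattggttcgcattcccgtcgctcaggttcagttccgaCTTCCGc
Rpl38: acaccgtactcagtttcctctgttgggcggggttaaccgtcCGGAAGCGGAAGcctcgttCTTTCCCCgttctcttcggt
Rpl22l1: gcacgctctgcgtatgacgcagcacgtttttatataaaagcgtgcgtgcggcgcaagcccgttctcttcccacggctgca
Rpl12: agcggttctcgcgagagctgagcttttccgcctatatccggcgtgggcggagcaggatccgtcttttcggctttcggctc
Rps6: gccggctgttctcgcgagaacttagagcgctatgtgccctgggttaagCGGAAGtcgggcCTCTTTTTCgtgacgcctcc
Rps2: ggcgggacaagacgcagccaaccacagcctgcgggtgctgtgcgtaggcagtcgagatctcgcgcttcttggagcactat
The run is present at the starts of Rps27, Rpl38 and Rps6 (7, 8 and 9 bases) and not at the other 5 annotated starts. For Rps27l, Rpl12, Rpl22l1 and Rps2 such a run begins within a few bases after the annotated start. The search asked for it at exactly the annotated base, so its absence at these starts depends on the annotation. The windows therefore do not show that the paralogues Rps27 and Rps27l differ in this motif.

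The median member deviated from its mean over the 9 males by -0.07, -0.03 and 0.12 (log2 of CPM + 0.5) in wild-type males, by 0.14, 0.05 and -0.05 in heterozygous males and by -0.03, -0.07 and -0.03 in homozygous males. In wild-type male 3 and in heterozygous male 1, 81 of 84 members lay above their means, while in the other 7 males 12 to 59 of 84 did. The wild-type and heterozygous groups therefore each spanned most of the range seen among the 9 males, with an SD of the library median of 0.10 in each, while the homozygous males were close to one another (SD 0.02). The lowest medians of the first 2 groups were in wild-type male 1 and heterozygous male 3, the 2 livers with the highest erythroid and macrophage markers; the part of those cells in the shift was not tested. In bulk tissue, fewer cells of a type and less RNA per cell cannot be told apart.

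**Figure D3:**
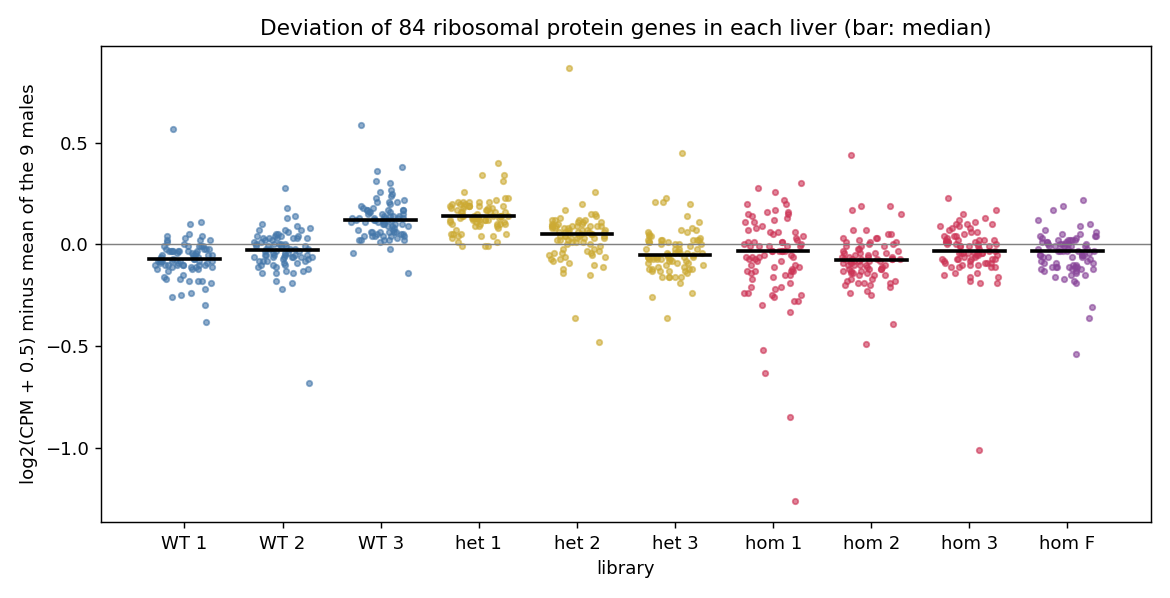
Deviation of each of the 84 members from its mean over the 9 males, in log2(CPM + 0.5), by liver; the black bar is the median. The cloud moves as a block in wild-type male 3 (median 0.12) and heterozygous male 1 (0.14), and in homozygous male 1 single members spread far below a median of -0.03.

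As a share of all expected counts, the members took 1.36%, 1.26% and 1.48% in wild-type males, 1.50%, 1.49% and 1.40% in heterozygous males and 1.39%, 1.38% and 1.35% in homozygous males. The means were 1.37% ± 0.111 (SD, n = 3), 1.47% ± 0.0536 and 1.37% ± 0.0241, and the female was at 1.46%. Large subunit genes held 0.832% ± 0.0646, 0.888% ± 0.0329 and 0.831% ± 0.0181 of the counts in the 3 male groups (SD, n = 3). Small subunit genes held 0.536% ± 0.0466, 0.577% ± 0.0211 and 0.542% ± 0.00596. Both means were highest in the heterozygous males. Wild-type male 3 (0.899% and 0.585%) lay above heterozygous male 3 (0.851% and 0.553%), so wild-type and heterozygous males overlapped for both subunits. As a share of summed FPKM the order was another: 4.39% ± 0.476 in wild-type, 4.55% ± 0.0708 in heterozygous and 4.72% ± 0.111 in homozygous males (SD, n = 3), with the female at 4.99%. Beside this, the members' median effective length was 441 bases against 2624 for all tested genes, with each gene counted once. The mean effective length in a library, with transcripts weighted by their FPKM, is another measure. It was 1349 ± 41.7 bases in wild-type, 1312 ± 45.0 in heterozygous and 1453 ± 9.37 in homozygous males (SD, n = 3).

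Whether the S400D allele changes these messages was asked by comparing the 3 male genotypes, which share their animals between comparisons. No member was called in homozygous against wild-type males: the quasi-likelihood test of edgeR with Benjamini-Hochberg adjustment called 0 of 84, as it called 0% of the 12427 genes tested. At an unadjusted p under 0.05, 1 member was lower and 0 were higher, where 8.08% of all genes were lower and 6.82% higher. DESeq2 called 308 genes in this comparison and limma-voom 0, and neither called a member. The fold changes of the members ranged from -0.79 to 0.31 (log2) with a median of -0.06, against 0.00 for all genes, and 60 of 84 were negative, against 49.3% of all genes. Of the 84, 76 lay within 0.2 of 0. The median was -0.06 for both the 51 large and the 33 small subunit genes. The library medians of the members varied within groups with a pooled SD of 0.08 (log2).

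In heterozygous against wild-type males the same test called 0 of 84 members and 0% of all genes, with 0 members at an unadjusted p under 0.05 against 4.19% of all genes; DESeq2 called 7 genes, limma-voom 0, and neither a member. The median member was at 0.04 (all genes 0.01) and 23 of 84 were negative, against 48.4% of all genes. In homozygous against heterozygous males it again called 0 members and 0% of all genes, while 6 members were lower and 0 higher at an unadjusted p under 0.05, beside 8.92% and 8.25% of all genes; DESeq2 called 545 genes, limma-voom 0, and neither a member. Here the median was -0.10 (all genes 0.00) and 65 of 84 were negative, against 49.6%. Members shared a displacement in at least wild-type male 3 and heterozygous male 1, so such counts are not counts of independent genes.

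The sign of the common shift in both comparisons with homozygous males depended on how length was handled. With a smooth trend on transcript length removed in each library, the median member was at 0.11 in homozygous against wild-type males and at 0.10 in homozygous against heterozygous males, with all genes at 0.02 and 0.00, while heterozygous against wild-type males stayed at 0.05. Scaling by library size alone gave 0.00, 0.12 and -0.12 for the 3 comparisons, with all genes at 0.06, 0.09 and -0.02; relative to all genes the members then kept the direction of the main scaling. Leaving out wild-type male 3 moved the members' median to 0.01 in the first of these. No direction is therefore given for the set as a whole.

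**Figure D4:**
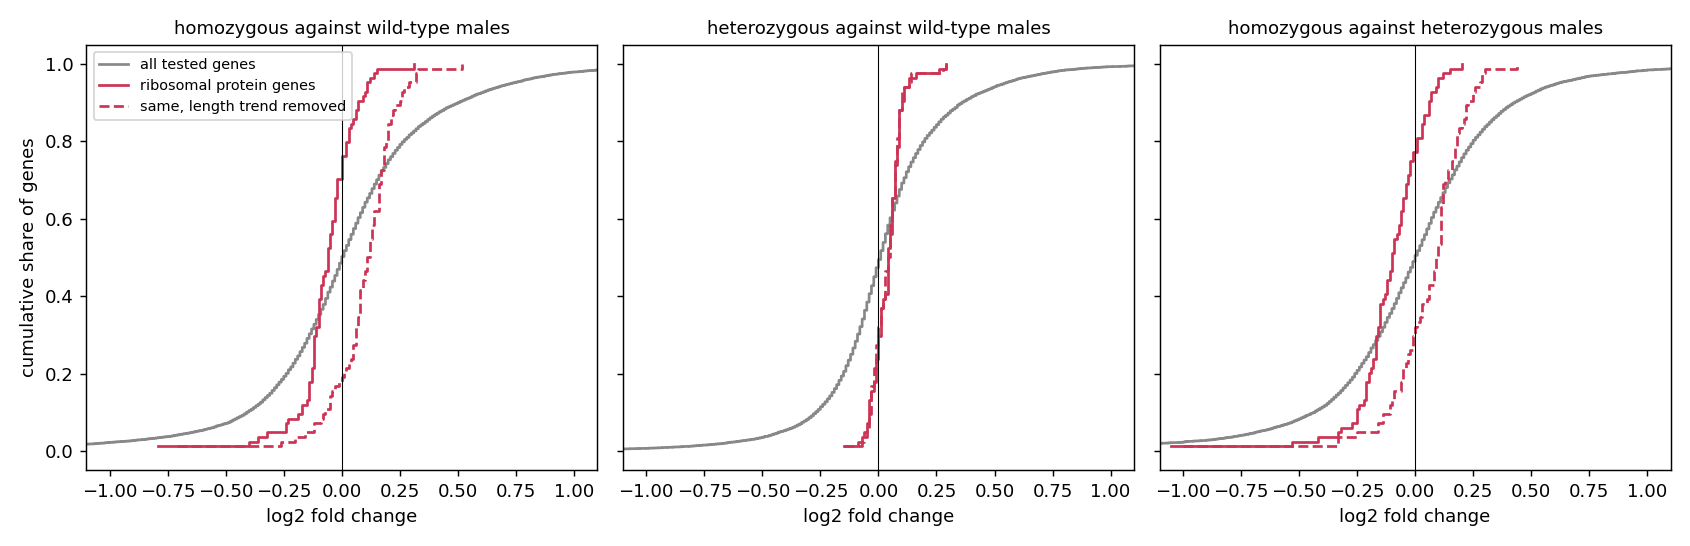
Cumulative share of genes by log2 fold change in the 3 comparisons of males, for all 12427 tested genes (grey), the 84 members (red) and the members after removal of the length trend (dashed). The red curves are steep, with medians of -0.06, 0.04 and -0.10, and the dashed curves cross to the other side of 0 in both panels with homozygous males, with medians of 0.11 and 0.10.

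The members with the smallest p were examined one by one. Rpl36al, a close paralogue of the large subunit gene Rpl36a (GRCm38.p6 chromosome 12, 69182734 to 69184067), was at 107, 108 and 127 CPM in wild-type males, 124, 113 and 106 in heterozygous males, 93.0, 89.1 and 92.9 in homozygous males and 85.2 in the female. All 4 homozygous livers were below all 6 others. The log2 fold change was -0.32 ± 0.10 (SE, 0.804-fold; adjusted p = 0.253, edgeR) against wild-type males and -0.32 ± 0.10 (adjusted p = 0.184, edgeR) against heterozygous males, and 0.00 ± 0.10 between heterozygous and wild-type males. With the length trend removed the 2 homozygous differences were -0.12 and -0.11.

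Rps27 and Rps27l are paralogues that encode alternative forms of one small subunit protein, of which Rps27l is known as a p53 target. Rps27 (chromosome 3, 90212667 to 90213648) was at 51.6, 53.5 and 62.0 CPM in wild-type males, 70.6, 62.6 and 47.4 in heterozygous males and 70.2, 67.6 and 68.8 in homozygous males, with the female at 60.4. The homozygous males lay above all wild-type males and within the wide range of the heterozygous males; the change against wild-type males was 0.31 ± 0.14 (log2, SE; adjusted p = 0.349, edgeR). Rps27l (chromosome 9, 66944624 to 66949522) was at 116, 102 and 110 CPM in wild-type males, 114, 109 and 123 in heterozygous males, 89.9, 97.2 and 104 in homozygous males and 94.4 in the female. It was lower in every homozygous male than in any heterozygous male (-0.25 ± 0.10, adjusted p = 0.248, edgeR) and overlapped the wild-type range. With the length trend removed, Rps27 was at 0.52 and Rps27l at 0.02 against wild-type males, so the distance between the paralogues remained.

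The ratio of reads of Rps27l to Rps27 put both together. It was 2.24, 1.92 and 1.77 in wild-type males, 1.61, 1.74 and 2.60 in heterozygous males, 1.28, 1.44 and 1.51 in homozygous males and 1.56 in the female. The homozygous males lay below both other groups, by 0.48 and 0.46 on the log2 scale. The exact two-sided permutation test gave p = 0.1 in both, the smallest that 3 against 3 animals allow, and 0.300 after adjustment over the 12 tests on 4 paralogue pairs. The ratio of Rpl36al to Rpl36a was 2.15, 2.14 and 2.22 in wild-type males, 2.04, 1.99 and 2.13 in heterozygous males, 2.10, 1.85 and 1.66 in homozygous males and 1.78 in the female. Both carrier groups lay below the wild-type males (exact permutation p = 0.1, adjusted 0.300, in each). The ratios of Rpl22l1 to Rpl22 and of Rpl7l1 to Rpl7 overlapped between all male groups. Rpl3l and Rpl39l had too few reads for a ratio. Paralogues of near-identical sequence can exchange reads in the authors' counting, so the values of each pair are uncertain.

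Rpl3, which reaches towards the peptidyl transferase centre, had one of the largest fold changes and owed much of it to 1 liver. It was at 253, 282 and 327 CPM in wild-type males, 336, 284 and 278 in heterozygous males, 171, 258 and 240 in homozygous males and 298 in the female. Homozygous male 1 was far below the other 2. The change was -0.36 ± 0.17 (adjusted p = 0.362, edgeR) against wild-type and -0.42 ± 0.17 (adjusted p = 0.255, edgeR) against heterozygous males, and -0.20 ± 0.14 and -0.27 ± 0.14 without homozygous male 1.

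The same liver was low in a handful of other members. Rpl12, a protein of the stalk base, was at 125 CPM in homozygous male 1 against 188 and 163 in the other 2 homozygous males. Rpl22l1, the paralogue of the RNA-binding protein Rpl22, was at 17.9 against 37.2 and 28.6, while wild-type males had 28.7, 28.0 and 42.1 and heterozygous males 43.2, 39.2 and 38.4. Rps2 was at 696 against 874 and 909. Relative to the mean of the other 2 homozygous males, these 4 genes were at 0.687 (Rpl3), 0.712 (Rpl12), 0.543 (Rpl22l1) and 0.780 (Rps2), and only the low copies Rpl32l and Rps23rg1 were also below 0.8. In the other direction 3 members were above 1.2, among them Rpl13a at 1.22, and 75 of 84 lay between. Without this liver, Rpl12 moved from -0.24 to -0.09, Rpl22l1 from -0.24 to 0.00 and Rps2 from -0.10 to 0.01 against wild-type males.

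**Figure D5:**
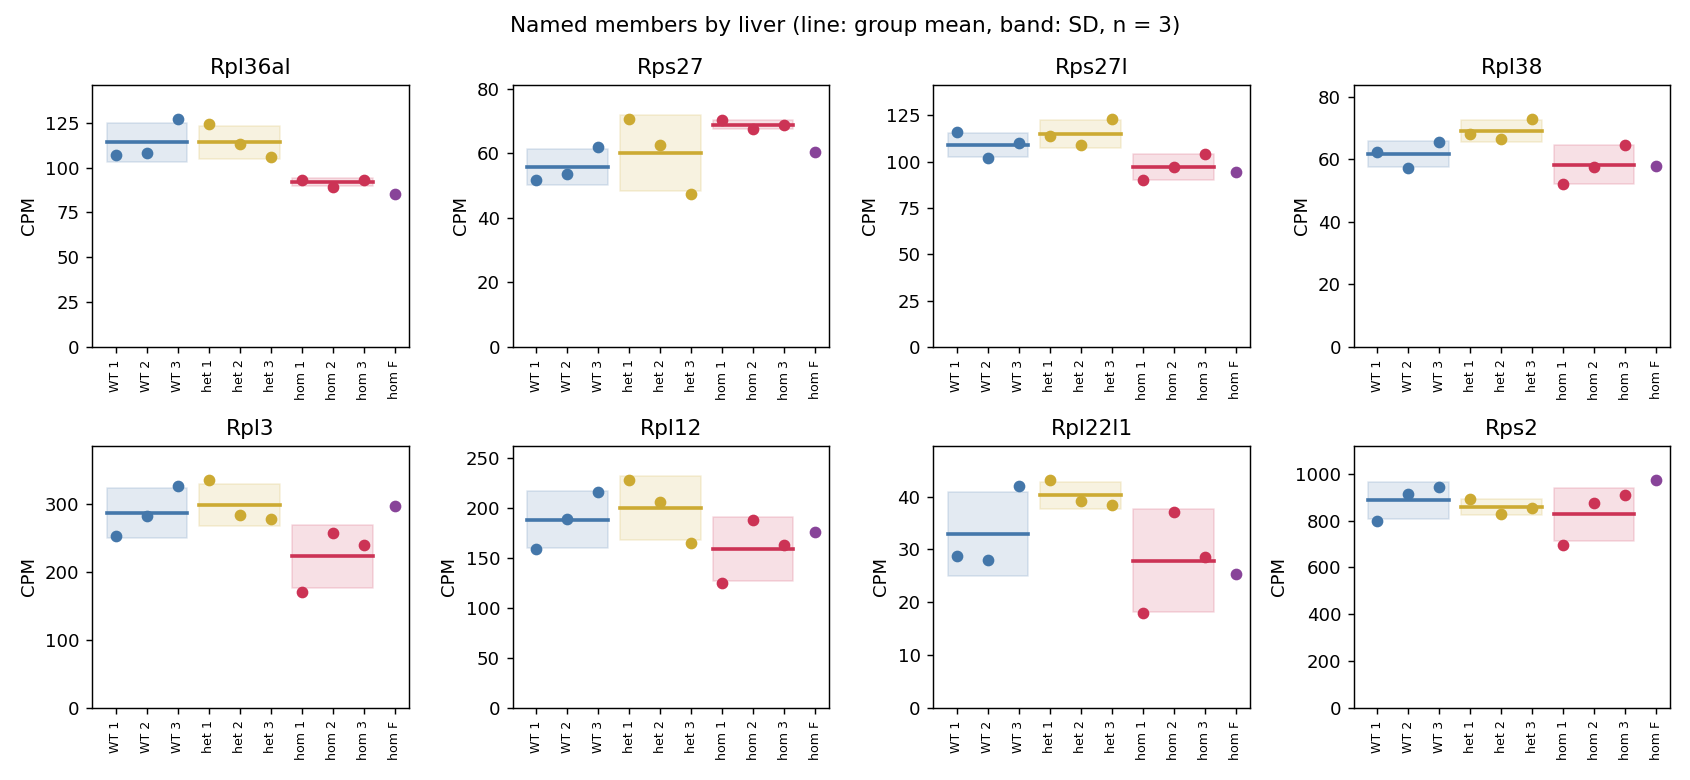
CPM of 8 members in each liver, with the group mean as a line and the SD as a band (n = 3 males per genotype; the female is a single point). Rpl36al lies at 85.2 to 93.0 in the 4 homozygous livers, the homozygous means are 68.9 for Rps27 and 97.0 for Rps27l, against 55.7 and 109 in wild-type males, and homozygous male 1 is lowest for Rpl3, Rpl12, Rpl22l1 and Rps2.

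Further members by smallest p differed less. Rpl17, which lines the exit tunnel, was at 168, 182 and 198 CPM in wild-type males, 204, 189 and 170 in heterozygous males and 147, 157 and 163 in homozygous males. The homozygous males lay below all others (-0.23 ± 0.11, adjusted p = 0.371, against wild-type and -0.27 ± 0.11, adjusted p = 0.263, against heterozygous males, edgeR), and with the length trend removed the differences were -0.05 and -0.09. Rpl27, a large subunit gene, and Rps3, a small subunit gene, were at 0.14 ± 0.10 and 0.11 ± 0.10 in homozygous against wild-type males, with groups that overlapped. Rplp0, Rpl13a and Rpl9 were the next after Rps27 against heterozygous males, at 0.12 ± 0.12, 0.15 ± 0.15 and 0.10 ± 0.10.

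By p, the first of the members above wild-type level in heterozygous males was Rpl38, a large subunit protein known from its role in the translation of Hox messages. It was at 62.3, 57.3 and 65.5 CPM in wild-type males, 68.1, 66.3 and 72.8 in heterozygous males, 52.2, 57.6 and 64.6 in homozygous males and 57.7 in the female. The 3 heterozygous males lay above all other livers (0.16 ± 0.10 against wild-type males, adjusted p = 0.972, edgeR). Rpl37 followed at 0.13 ± 0.09, Rpl22l1 at 0.29 ± 0.25 and Rpl35a at 0.11 ± 0.10. The members lowest in heterozygous males by p, Rplp0, Rpl7a, Rps9 and Rpl8, were at -0.09, -0.07, -0.05 and -0.06, each within its SE of 0.11 or 0.12.

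Counted by groups that do not overlap, 8 members were lower in each homozygous male than in any wild-type male (among them Rpl36al, Rpl17, Rpl11 and Rpl19), where 11.5% of all genes were, and only Rps27 was higher (9.26% of all genes). The 8 of 84 are near the background share. In heterozygous against wild-type males, 3 were higher (Rpl38, Rpl37 and Rpl19; 4.56% of all genes) and 0 lower (5.81%). In homozygous against heterozygous males, 25 were lower (11.7%) and 0 higher (10.7%), among them Rpl36al, Rps27l, Rpl3 and Rpl17. Non-overlap was not recounted with the length trend removed.

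Among the members named for their role, only Rpl11 and Rplp1 had male groups that did not overlap, and none was called. Rpl5 was at 227 ± 12.1 CPM in wild-type, 226 ± 20.9 in heterozygous and 227 ± 15.0 in homozygous males (SD, n = 3), a change of 0.00 ± 0.11 (log2, SE) in homozygous against wild-type males. Rpl11 was at 171 ± 9.71, 176 ± 7.26 and 155 ± 4.16 CPM (SD, n = 3), lower in each homozygous male than in any other male. Against wild-type males its change was -0.14 ± 0.09 (adjusted p = 0.493, edgeR), and 0.01 with the length trend removed. Rps19 was at 129 ± 9.54, 133 ± 7.63 and 131 ± 3.41 CPM (SD, n = 3). Of the stalk, Rplp2 was at 101 ± 11.2, 99.8 ± 8.51 and 99.4 ± 6.82 CPM, Rplp0 at 365 ± 29.3, 343 ± 24.5 and 373 ± 28.9, and Rplp1 at 136 ± 4.83, 144 ± 9.08 and 122 ± 14.3 (SD, n = 3). Rplp1 was the stalk gene that separated homozygous from heterozygous males (-0.24 ± 0.11, adjusted p = 0.301, edgeR), with its lowest value, 106 CPM, again in homozygous male 1. With the length trend removed this difference was -0.03. Rpsa ran at 416 ± 67.0, 426 ± 54.4 and 383 ± 4.27 CPM and Rpl10 at 483 ± 53.4, 469 ± 52.2 and 424 ± 23.3 (SD, n = 3), with overlapping groups.

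Members with and without the pyrimidine run at the annotated base had close medians. The 14 tested members with a run at a start had a median of -0.03 in homozygous against wild-type males and the 50 without one -0.06. The medians were 0.07 and 0.04 in heterozygous against wild-type males and -0.10 and -0.10 in homozygous against heterozygous males. For CGGAAG, the 42 members with it and the 22 without had medians of -0.08 and -0.03, 0.04 and 0.04, and -0.11 and -0.03. These are descriptions of annotated starts and carry no test. Members counted as without a run include Rps27l, Rpl12, Rpl22l1 and Rps2, where one begins within a few bases after the annotated start. The split therefore does not separate messages with the motif from those without it.

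For the homozygous female against the homozygous males, all 10 livers entered the fit, which assumes that it varies as males do. The test called 0 of 84 members, beside 10 of 12954 genes (0.0772%), and 0 members had an unadjusted p under 0.05, beside 10.3% of all genes. The median member was at 0.00 (all genes -0.01), and 40 of 84 were negative, against 51.7% of all genes. The largest member difference was in Rpl3, at 298 CPM against 171, 258 and 240 (0.42 ± 0.24, adjusted p = 0.584, edgeR).

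Genes around the ribosome were read from 5 lists. Of the ribosomal proteins under other names, Rack1, a scaffold protein of the small subunit, was at 249, 267 and 277 CPM in wild-type, 288, 253 and 247 in heterozygous and 288, 252 and 260 in homozygous males, and Fau, which encodes a small subunit protein fused to a ubiquitin-like one, at 154, 149 and 181, then 185, 149 and 144, then 177, 138 and 166 CPM. The groups overlapped for both. None of the genes on the 5 lists was called by edgeR in any comparison of males.

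Of the 43 ribosome assembly factors, 0 passed the test, while 10 were lower and 0 higher at an unadjusted p under 0.05 in homozygous against heterozygous males (8.92% and 8.25% of all genes). Their median was -0.21 with 32 of 43 negative, and it was -0.08 in homozygous against wild-type and 0.09 in heterozygous against wild-type males. Gar1, a protein of the box H/ACA particles that modify ribosomal RNA, was at 3.87, 4.18 and 3.20 CPM in wild-type males, 5.96, 5.25 and 5.01 in heterozygous males, 3.83, 2.28 and 3.85 in homozygous males and 6.30 in the female (-0.70 ± 0.23, adjusted p = 0.188, edgeR, homozygous against heterozygous). Its partner Nhp2 was at 14.9, 14.8 and 15.7 CPM in heterozygous and 11.6, 12.6 and 11.3 in homozygous males (-0.36 ± 0.11, adjusted p = 0.180, edgeR). Mdn1, a large remodelling ATPase of large subunit assembly, was higher in each heterozygous male than in any wild-type male (14.4, 13.1 and 15.3 against 9.85, 10.2 and 9.29 CPM; 0.54 ± 0.13, adjusted p = 0.972, edgeR). Nop56 (-0.40 ± 0.19) and Rrp9 (-0.54 ± 0.26) had the smallest p against wild-type males, and Rrs1 was at -0.49 ± 0.20 in heterozygous males. Among the heterozygous males, all of the 10 factors except Nhp2 and Mdn1 were highest in heterozygous male 1. Nop58 was at 26.2 CPM there, against 12.9 and 18.0 in heterozygous males 2 and 3. Nop56 was at 31.6 against 23.2 and 23.3, and Heatr1 at 28.4 against 18.5 and 20.8. Nhp2 and Mdn1 were highest in heterozygous male 3. The 10 are therefore not a count of independent genes. The female was higher than the homozygous males in this list by a median of 0.24, with 9 of 43 negative.

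Of the 33 translation factors, 2 were lower and 0 higher at an unadjusted p under 0.05 in homozygous against wild-type males, beside 8.08% and 6.82% of all genes, so this count does not stand above the background. Eif4a1, the helicase of cap-dependent initiation, was at 253, 275 and 255 CPM in wild-type, 283, 222 and 251 in heterozygous and 215, 182 and 205 in homozygous males, below both groups without overlap, and 253 in the female (-0.38 ± 0.12, adjusted p = 0.247, edgeR). Eif5b, which joins the subunits, was at 76.0, 74.5 and 74.4 CPM in wild-type and 64.7, 60.6 and 66.3 in homozygous males (-0.23 ± 0.08, adjusted p = 0.262, edgeR). Eif3a was at 0.23 ± 0.10 in homozygous against heterozygous males, and Eif3h and Eef1g were both at -0.10 in heterozygous against wild-type males.

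Among 11 genes of RNA polymerase I transcription, Ubtf, the upstream binding factor, was at 77.2, 82.5 and 90.5 CPM in wild-type, 67.7, 67.5 and 73.2 in heterozygous and 74.8, 67.5 and 51.9 in homozygous males (-0.36 ± 0.14, adjusted p = 0.278, edgeR, homozygous against wild-type). Both groups of carrier males lay below the wild-type males, while the homozygous female, at 81.9 CPM, lay within their range. Taf1b was at -0.52 ± 0.22 and Rrn3 at -0.34 ± 0.24 in homozygous against heterozygous males, and Taf1c at 0.52 ± 0.23 in heterozygous against wild-type males. Among 16 genes of control by MYC, mTOR and LARP1, Maf1, a repressor of RNA polymerase III, was at 0.35 ± 0.15 (adjusted p = 0.308, edgeR) in homozygous against wild-type males. Tsc1, an inhibitor of mTORC1, was at 0.55 ± 0.21 and the S6 kinase gene Rps6kb1 at 0.30 ± 0.13 in homozygous against heterozygous males (adjusted p = 0.245 and 0.274, edgeR). Myc itself was low and uneven, at 7.33, 5.40 and 1.60 CPM in wild-type, 2.46, 2.54 and 2.70 in heterozygous and 2.63, 3.57 and 1.75 in homozygous males, and 10.1 in the female.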

How the data were processed

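The deposited table gives, per transcript and sample, the authors' expected counts (estimated reads, not normalised), FPKM and TPM. HISAT, Bowtie2 and GRCm38.p6 are named in the submitters' processing notes; for versions, counting program and strand use the sources used here give nothing. The 77712 transcript rows were summed to 19271 genes, and the expected counts the authors deposited were rounded to whole numbers; 94.5% of nonzero sums lay within 0.05 reads of one. Genes were tested with edgeR 4.0.16 (quasi-likelihood, R 4.3.3), with its low-count filter and TMM factors, fitted on the 9 males together with genotype as the only term, with Benjamini-Hochberg adjustment over all tested genes at 0.05. CPM values carry the TMM factors. The authors' FPKM values served for levels per length and, with limma 3.58.1, for alternative fits; effective lengths are counts divided by FPKM, and the authors' TPM values served only for shares. Alternatives were DESeq2 1.42.0, limma-voom, other scalings and filters, curated transcripts alone, removal of a trend on effective length, the replicate number as a block and omission of each animal. Scripts were tested on simulated data. Members named were, per comparison, the 4 per direction with the smallest p, the extremes of FPKM and of variation, genes of known role and paralogue pairs; of the other lists, the 2 with the smallest p. Rpl12 was named after its values were seen. Some genes that the rules chose are not reported here. The members and lists were chosen with earlier results of these data known.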

Additional observations from a re-analysis of the deposited data

How the results depend on the processing

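No member was called under any alternative that was run, in any comparison of males. The number of genes called by edgeR in all, 0 in each comparison, became 308 (114 higher, 194 lower), 7 and 545 (265 higher, 280 lower) with DESeq2 for homozygous against wild-type, heterozygous against wild-type and homozygous against heterozygous males, and 1, 0 and 1 with limma on log2(FPKM + 1) without a filter; the cause was not tested. Leaving out 1 animal at a time gave 0 to 18, 0 and 0 to 6 genes; the 18 came without wild-type male 1, and 2 and 6 without homozygous male 2. Removing the length trend moved the members' median from -0.06 to 0.11 in homozygous against wild-type and from -0.10 to 0.10 in homozygous against heterozygous males; that alternative changes only the handling of length. Leaving out each animal, the medians ran from -0.10 to 0.01, 0.00 to 0.10 and -0.14 to -0.06. The log2 ratio of the members' summed level, 0.01 and -0.09 by share of counts for homozygous males against wild-type and heterozygous males, was 0.11 and 0.05 by share of FPKM and of TPM.

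Single members changed sign as follows, always near 0; the cause was not tested. Rps27l in homozygous against wild-type males was at 0.02 with the length trend removed. Rpl7a, Rps9 and Rpl8 in heterozygous against wild-type males were at 0.01, 0.02 and 0.02 with library size alone, at 0.00, 0.01 and 0.01 in each of the 3 limma fits on FPKM, at 0.01, 0.01 and 0.01 without wild-type male 3, and at 0.01, 0.02 and 0.03 without heterozygous male 3; over all single omissions they ran from -0.14 to 0.01, -0.12 to 0.02 and -0.17 to 0.03. Replicate numbers did not pair the animals: correlations of same-numbered animals ran from -0.438 to 0.195, and 2 of 9 correlated best with their own number. With the replicate block 0 genes and 0 members were called in each comparison, and the members' medians were -0.06, 0.05 and -0.10.

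With 3 animals per group and a median SE of 0.11, shifts of the size seen in the set could not be called for single members. Rpl39l, Rpl3l and Rps27rt were below the count needed for a test, and the low copies Rps23rg1 and Rpl37rt rested on few reads.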

Other observations

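Transcript shares within a gene were looked at in a few members, chosen after their values were seen; they carry no test. Rps24 is known for alternative splicing near its 3' end. Its leading curated transcript took 47.2%, 53.6% and 51.0% of the gene's reads in wild-type males, 42.3%, 44.5% and 46.4% in heterozygous males, 53.2%, 56.4% and 52.1% in homozygous males and 46.1% in the female. The heterozygous males lay below both other groups of males. The second transcript, a predicted one, took 43.3%, 39.6% and 42.3%, then 47.9%, 47.3% and 43.9%, then 39.2%, 38.0% and 40.8% in the same order of groups.

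Rpl3 has a predicted transcript beside the curated one. It held 2.04%, 2.07% and 2.29% of the reads in wild-type males, 2.34%, 2.71% and 1.76% in heterozygous males, 4.39%, 2.98% and 3.61% in homozygous males and 2.81% in the female. In reads it was at 88, 91 and 121 in wild-type, 128, 131 and 87 in heterozygous and 132, 131 and 143 in homozygous males, while the curated transcript held 4227, 4293 and 5188 reads in wild-type and 2862, 4279 and 3835 in homozygous males.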
